A study of Homo sapiens with 12 samples.

Results

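The difference in estradiol response between T47D breast cancer cells with and without ectopic HOXB13 was measured as an interaction contrast. For each gene, the log2 change with estradiol in control cells was subtracted from the log2 change with estradiol in HOXB13 cells. A negative value of an induced gene is therefore a smaller induction in the HOXB13 cells. The contrast used 12 of the series' 12 RNA-seq libraries, in 4 groups of 3, with each genotype kept in vehicle and in estradiol. T47D is an established human luminal breast cancer line that expresses the estrogen receptor. The control cells carry the label WT and the other cells the label of ectopic HOXB13 expression. How HOXB13 was delivered, whether the line is a clone or a pool, and whether the control cells carry an empty vector are details that the sources used here do not give. All cells were kept for 72 h in medium with 10% charcoal-stripped serum, which is low in steroid hormones, and then received 2 nM estradiol or its solvent ethanol (vehicle) for 24 h. The labels number the libraries 1 to 3 in each group and do not say that they came from separate cultures, so the p-values rest on a spread among libraries that may be technical only.

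Estradiol acts mainly through estrogen receptor alpha, the product of ESR1, a nuclear receptor that binds DNA at estrogen response elements when it holds the hormone and then recruits coactivators. In luminal breast cancer cells its targets include secreted proteins, the progesterone receptor and genes of cell division. HOXB13 is a homeodomain transcription factor of the posterior HOX group, known for its role in the prostate, and its ratio to IL17RB has been used as a marker in breast cancer treated with tamoxifen.

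Library totals were between 17679824 and 21385996 counts, and 14799 of 55882 symbols passed the filter on low counts. HOXB13 itself, the check of the labels, had 112, 106 and 108 counts in the HOXB13 vehicle libraries and 110, 92 and 97 in the HOXB13 estradiol libraries, against 2, 0 and 1 in control vehicle and 0, 0 and 0 in control estradiol. Its own estradiol response was not compared between genotypes because the control estradiol libraries held no count. Markers of luminal epithelium fitted the line, with KRT8 between 6653 and 11673 CPM (counts scaled to library size). The endothelial marker CDH5 was at 0 in 12 of 12 libraries, and the endothelial marker VWF reached 0.261 CPM. RGS5, a stromal marker, lay between 0.956 and 8.15 CPM. Of the basal markers, ACTA2 lay between 11.9 and 34.9 CPM, while KRT5, KRT14 and TP63 did not exceed 0.575 CPM. The summed level of the 12 markers of other cell types lay between 57.2 and 71.7 CPM, most of it from COL1A1, which lay between 51.5 and 64.1 CPM. The libraries numbered 2 stood apart within every group. Pairs of same-group libraries that included number 2 differed by a chi-square per degree of freedom of 20.5 to 44.9, against 6.86 to 14.2 for the pairs of numbers 1 and 3. Some results are therefore also given without them.

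Among the 14799 genes tested, no gene differed in its estradiol response by genotype at an adjusted p under 0.05 (0% of genes called in either direction, edgeR's quasi-likelihood test with Benjamini-Hochberg adjustment, smallest adjusted p = 1.0). Before adjustment, 219 genes (1.48%) had a p under 0.05, 89 with a higher value in HOXB13 cells (0.601%) and 130 with a lower one (0.878%). If no gene differed and the p-values were evenly spread, 740 would be expected at that threshold. The p-values of this fit thus ran high, and the cause was not tested. Fits with a replicate block and with a term for the libraries numbered 2 gave 585 and 520 such genes, and also called 0 after adjustment. DESeq2's Wald test and limma-voom also called 0 genes, with 239 and 226 at an unadjusted p under 0.05. Each response taken by itself was broad. Estradiol raised 1280 genes in control cells (8.65%) and 1068 in HOXB13 cells (7.22%), and lowered 995 (6.72%) and 944 (6.38%). Which of these calls were made in 1 genotype and not in the other is no measure of a difference, since the difference itself was tested and did not pass for any gene.

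The precision of the contrast limits what it could show. The 95% interval reached a median of 0.53 to either side on the log2 scale over all tested genes with an interval and 0.47 over the 12109 genes whose average log2 CPM reached 1. Differences smaller than this were not detectable for a typical gene with 3 libraries per group. These intervals are unadjusted, so differences well above this size could also go uncalled. ADRA2A at -1.56 and NXPH3 at -1.22 had 95% intervals that excluded 0 and were not called. The contrast was centred near 0, with a median of -0.01 and 7568 genes (51.1%) below and 7231 (48.9%) above 0. HOXB13 against control called 3 genes higher in vehicle (0.0203%) and 2 in estradiol (0.0135%), and 0 lower in either. HOXB13 itself was among the called genes in both states. These counts are from the fit without a replicate block, and with the block more genes were called in both directions, as given in the closing section.

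Across the 4158 genes called for the average estradiol response, which is the mean of both genotypes' responses and does not use their difference, the responses lined up. Pearson's r between the response in control cells and in HOXB13 cells was 0.929 and Spearman's rho 0.947. These are correlations across genes, which are not independent replicates, and the responses share no library. All but 1 of the genes, 4157 of 4158, had the same sign in both genotypes, a count favoured by choosing genes on the mean of both responses.

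**Figure D1:**
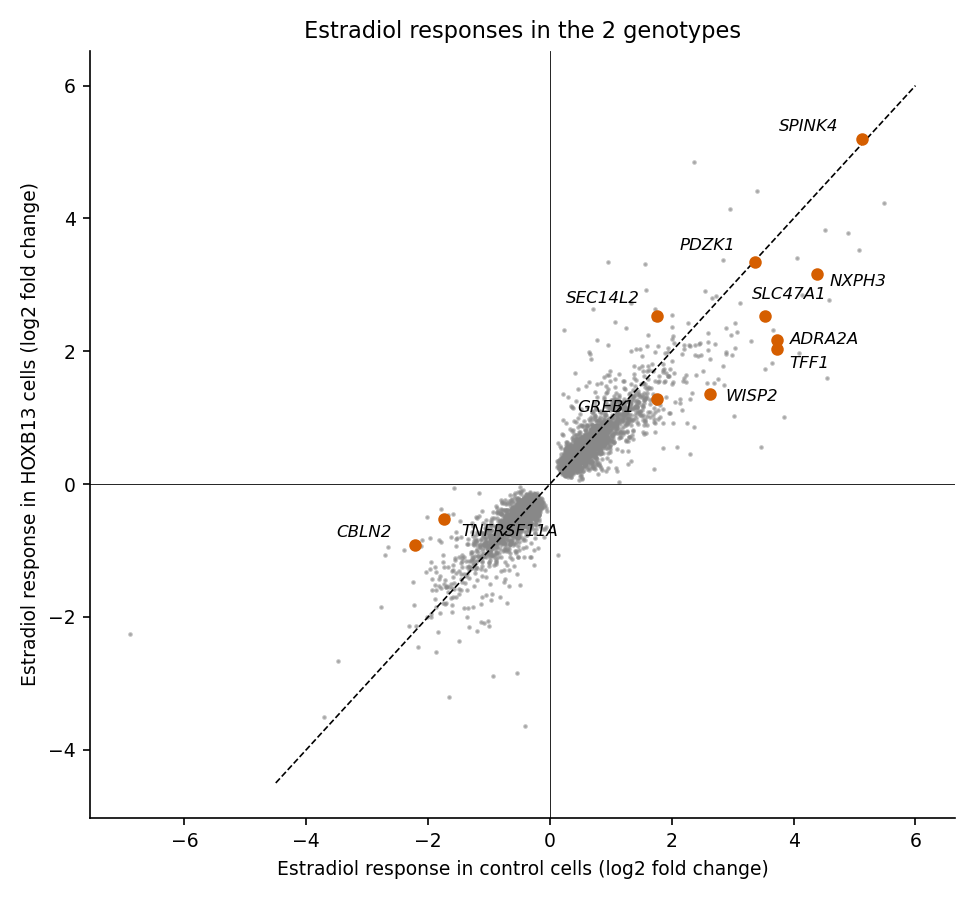
Estradiol response (log2 fold change) in control cells on the horizontal axis and in HOXB13 cells on the vertical axis, 1 point per gene for the 4158 genes called for the average response. The dashed line marks equal responses, and the named genes are orange: TFF1, WISP2, ADRA2A, NXPH3 and SLC47A1 lie below it, SEC14L2 lies above it, and PDZK1 and SPINK4 lie on or near it.

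The genes TFF1, WISP2 and ADRA2A, which came with the contrast as its markers, all had larger inductions in control cells than in HOXB13 cells on the log2 scale, and for each the HOXB13 vehicle libraries were all above the control vehicle libraries. None of the 3 differences passed the adjustment over all genes. The sources used here do not say how the 3 genes were chosen, so their values are not independent evidence of a difference. Of all tested genes, 532 (3.59%) had vehicle libraries that stood apart in this direction.

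TFF1 encodes a secreted trefoil peptide and is a classical target of the estrogen receptor. Its level was 0, 0.335 and 0.418 CPM in control vehicle libraries 1, 2 and 3, and 2.73, 4.33 and 3.10 CPM in control estradiol. In HOXB13 cells it was 0.844, 0.475 and 0.732 CPM in vehicle, and 3.45, 2.66 and 2.33 CPM in estradiol. The genotypes did not overlap in vehicle and overlapped in estradiol. TFF1 rose by 3.72 ± 0.58 (SE, log2) in control cells and by 2.03 ± 0.47 in HOXB13 cells, and the difference of -1.70 had a 95% interval of -3.30 to -0.10 (unadjusted p = 0.0343 and adjusted p = 1.0, edgeR's quasi-likelihood test). Leaving out single libraries moved the difference of TFF1 between -1.13, without control vehicle library 1, and -2.23, without control vehicle library 3, and 6 of the 12 such fits gave an unadjusted p over 0.05, of up to 0.0816. The lowest of these levels rest on few reads: the control vehicle libraries held 0, 7 and 8 counts of TFF1.

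WISP2, also known as CCN5, is a secreted matricellular protein of the CCN family. It stood at 1.10, 1.92 and 0.626 CPM in control vehicle and at 7.42, 9.75 and 5.77 CPM in control estradiol. In HOXB13 cells it stood at 4.07, 3.96 and 4.92 CPM in vehicle and at 11.8, 10.6 and 10.6 CPM in estradiol. The HOXB13 libraries lay above the control libraries in both states. The response was 2.63 ± 0.31 in control cells and 1.35 ± 0.26 in HOXB13 cells, a difference of -1.28 ± 0.40 (95% interval -2.15 to -0.42, unadjusted p = 0.00643). On the linear scale the mean gain with estradiol was 6.43 CPM in control cells and 6.70 CPM in HOXB13 cells. The fold change of WISP2 was thus smaller while its gain in CPM was not. The mean gains of TFF1 were 3.14 and 2.13 CPM in control and HOXB13 cells, those of ADRA2A 19.1 and 17.2 CPM, and those of SLC47A1, described further on, 18.1 and 12.9 CPM.

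ADRA2A encodes the alpha-2A adrenergic receptor, a G protein-coupled receptor. Its levels were 0.953, 1.96 and 1.72 CPM in control vehicle and 20.4, 20.2 and 21.2 CPM in control estradiol. In HOXB13 cells they were 5.51, 2.32 and 6.90 CPM in vehicle and 24.3, 18.1 and 23.9 CPM in estradiol. The mean in vehicle was 3.18-fold higher in HOXB13 cells, with library 2 the lowest of its group, and in estradiol the genotypes overlapped. The response was 3.73 ± 0.33 in control cells and 2.16 ± 0.29 in HOXB13 cells, a difference of -1.56 ± 0.44 (95% interval -2.50 to -0.62, unadjusted p = 0.00290 and adjusted p = 1.0, edgeR's quasi-likelihood test). Without the 4 libraries numbered 2, ADRA2A was the single gene called, at -1.999 (adjusted p = 0.0137). Leaving out only library 2 of the HOXB13 vehicle group gave an adjusted p of 0.337. When genes with low counts were not filtered out, 4 genes were called among 25598: ADRA2A at -1.56 (adjusted p = 0.000449) and 3 structural RNAs, RMRP at 2.10, RN7SK at 1.83 and RNA28S5 at 0.98. The difference of ADRA2A was the same as with the filter while its unadjusted p went from 0.00290 to 7.02e-08, and the cause of this was not tested. RMRP and RN7SK were named after their values were seen.

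**Figure D2:**
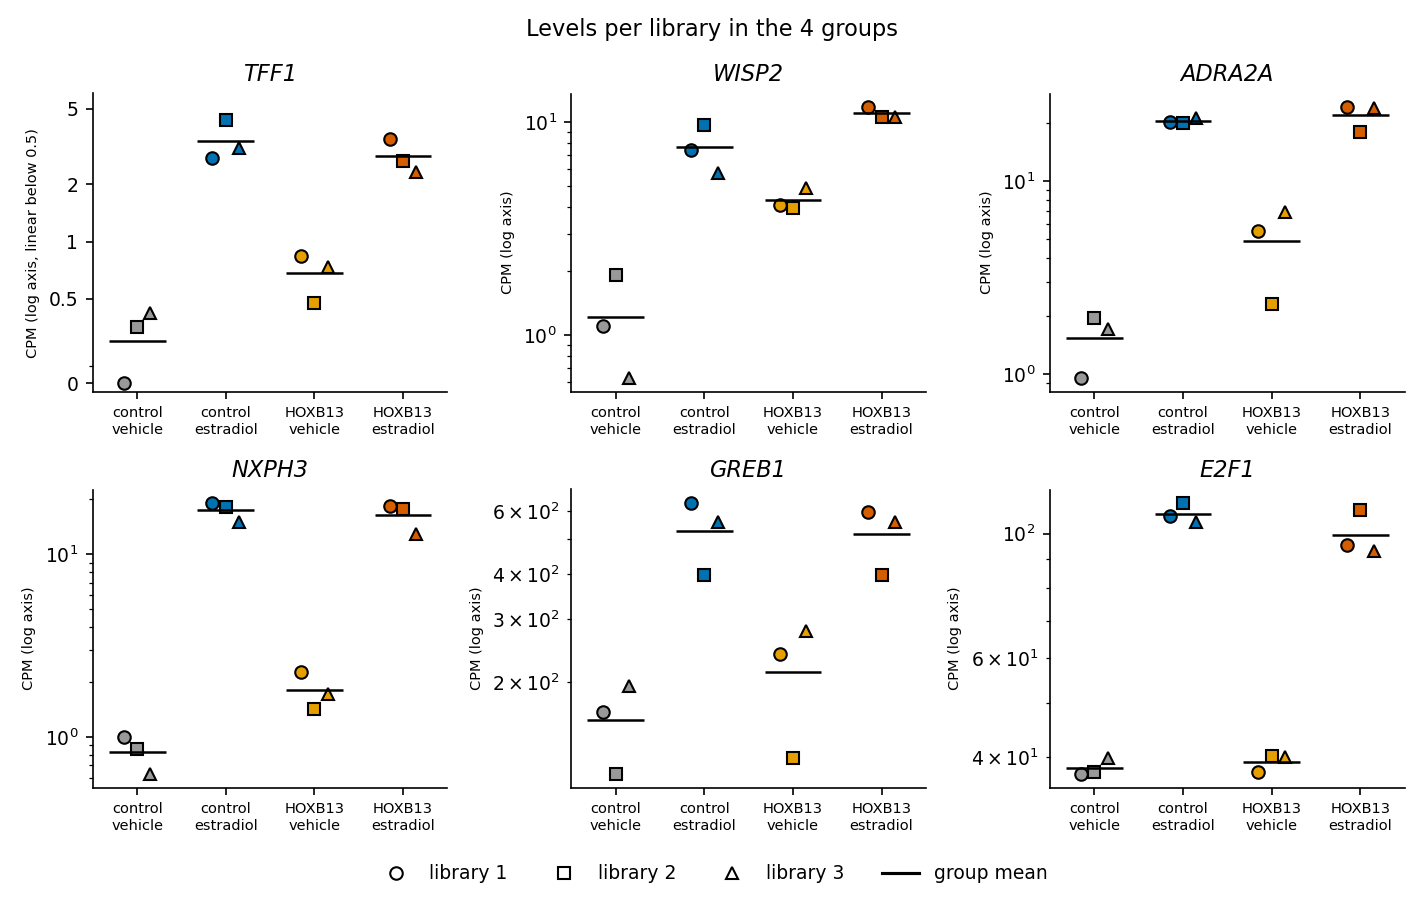
Level in CPM on a log axis (for TFF1 linear below 0.5) for TFF1, WISP2, ADRA2A, NXPH3, GREB1 and E2F1 in the 4 groups, 1 point per library with shapes for library numbers 1 to 3 and a bar at the group mean. For the first 4 genes the HOXB13 vehicle libraries sit above the control vehicle libraries, whereas GREB1 and E2F1 overlap in vehicle.

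The relatives of the 3 markers had smaller estimated differences. Of the trefoil family, TFF3 had a difference of -0.26 ± 0.36, and of the CCN family, CYR61 had -0.12 ± 0.13 and CTGF -0.31 ± 0.54. Among the adrenoceptors, ADRB1 had -0.66 ± 0.97 and ADRA2C -0.02 ± 0.20. The intervals of all 5 included 0. With SEs of 0.97 and 0.54, ADRB1 and CTGF could not show whether a difference of the markers' size was missing.

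Of the 3 markers, the promoter of ADRA2A is shown because it matched an entry in the sequence table used here, and TFF1 and WISP2 are named only. The promoters of RNF223, with a smaller induction in HOXB13 cells, and of SEC14L2, with a larger one, are set beside it for comparison. The windows are the 250 bases before the start site in RefSeq on build GRCh38.p14: chr10:111076779-111077028 on the plus strand for ADRA2A, chr1:1074307-1074556 on the minus strand for RNF223, and chr22:30396768-30397017 on the plus strand for SEC14L2. RNF223 and SEC14L2 were added, and the window was shortened to leave out transcribed bases, after their values had been seen. Capitals mark matches, on either strand, to the core GGTCA of the estrogen response element, to the HOXB13 core ATAAA, and to the TATA box letters TATAAA, which contain ATAAA.
ADRA2A: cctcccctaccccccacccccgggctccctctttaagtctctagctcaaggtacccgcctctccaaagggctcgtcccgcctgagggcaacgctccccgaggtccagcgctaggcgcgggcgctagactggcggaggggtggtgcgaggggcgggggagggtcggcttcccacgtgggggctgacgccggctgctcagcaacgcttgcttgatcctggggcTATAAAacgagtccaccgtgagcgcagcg
RNF223: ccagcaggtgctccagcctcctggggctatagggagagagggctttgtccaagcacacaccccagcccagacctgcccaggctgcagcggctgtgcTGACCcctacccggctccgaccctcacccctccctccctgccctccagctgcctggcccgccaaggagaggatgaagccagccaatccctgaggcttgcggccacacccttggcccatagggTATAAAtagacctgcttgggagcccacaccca
SEC14L2: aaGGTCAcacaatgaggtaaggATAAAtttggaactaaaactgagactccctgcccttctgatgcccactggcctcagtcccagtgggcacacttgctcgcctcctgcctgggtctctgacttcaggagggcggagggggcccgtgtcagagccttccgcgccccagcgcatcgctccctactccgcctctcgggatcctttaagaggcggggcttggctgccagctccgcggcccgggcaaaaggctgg
None of these windows held the full element GGTCANNNTGACC, which 0.0399% of 35116 RefSeq promoter windows of this length held. This core was at position -154 of RNF223 on the minus strand and at -248 of SEC14L2, counted from the start site, and 32.65% of all windows held it. ATAAA was at -28 in ADRA2A, at -31 in RNF223 and at -228 in SEC14L2, and 32.68% of all windows held it. In ADRA2A and RNF223 these letters lie inside TATAAA at -29 and -32, which 10.72% of windows held. The variant GTAAA, in 25.25% of windows, was in none of the 3. Matches describe the letters only, and 62 of the 91 named genes had a promoter entry.

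The size of the difference followed the size of the induction. Of 2154 genes called as induced on average (14.6%), 1375 had a smaller response in HOXB13 cells, with a median difference of -0.05. In the 935 genes induced by under 0.5 (log2), 580 were weaker in HOXB13 cells and the median difference was -0.03. In the 794 genes induced by 0.5 to 1, 499 were weaker, with a median of -0.06, and in the 351 induced by 1 to 2, 243 were weaker, with a median of -0.16. In the 74 genes induced by over 2, 53 were weaker and the median was -0.56, against -0.01 over all tested genes. Of these 74 genes, 13 had a lower and 1 a higher value at an unadjusted p under 0.05 (edgeR's quasi-likelihood test). Over all tested genes the shares were 0.878% lower and 0.601% higher. In the 351 genes induced by 1 to 2, 19 were lower and 4 higher at that threshold.

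For the 74 most strongly induced genes the median genotype difference was larger in vehicle than in estradiol. The median HOXB13-minus-control difference was 0.60 in vehicle and -0.06 in estradiol (log2). The vehicle difference and the difference in response use the same vehicle libraries, so neither supports the other. The 3 HOXB13 vehicle libraries were all above the control vehicle libraries for 14 of the 74 genes and all below for 3, against 3.59% and 3.54% of all tested genes. In estradiol, 5 genes were all above and 7 all below, against 4.51% and 5.37% of all tested genes. Relative to the control vehicle mean, the median level of the 74 genes was 0.45, 0.07 and 0.62 in HOXB13 vehicle libraries 1, 2 and 3, and -0.15, 0.07 and 0.07 in the control vehicle libraries. Library 2 of the HOXB13 vehicle group was thus at the level of the controls, and the shift came from libraries 1 and 3. In estradiol the medians were 2.58, 2.52 and 2.46 in control cells and 2.63, 2.46 and 2.56 in HOXB13 cells, with the genotypes interleaved. The summed level of the 74 genes, which weights high genes most, overlapped between genotypes in both states. It was 219, 310 and 316 CPM in control vehicle and 339, 256 and 372 CPM in HOXB13 vehicle. With estradiol it was 1429, 1675 and 1548 CPM in control cells and 1500, 1277 and 1350 CPM in HOXB13 cells.

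The median of these 74 genes depended on single libraries. Followed as a fixed set, it was -0.32 without the libraries numbered 1, -0.37 without control vehicle library 1 and -0.35 without HOXB13 vehicle library 3. When the set was chosen anew in each fit, it was -0.30 without the libraries numbered 1, -0.36 without HOXB13 vehicle library 1, -0.29 without HOXB13 vehicle library 3 and -0.33 with no filter on low counts. Between libraries of the same number, the median difference on the log2 CPM scale was -0.43, -0.21 and -0.60 for numbers 1, 2 and 3. Low levels were common in the set: in the 37 genes whose average log2 CPM reached 1, a split made after seeing the data, 27 were weaker, the median difference was -0.44 and the median vehicle difference 0.26. With a prior count of 2, which dampens the fold changes of low genes, the median of all 74 genes was -0.42.

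**Figure D3:**
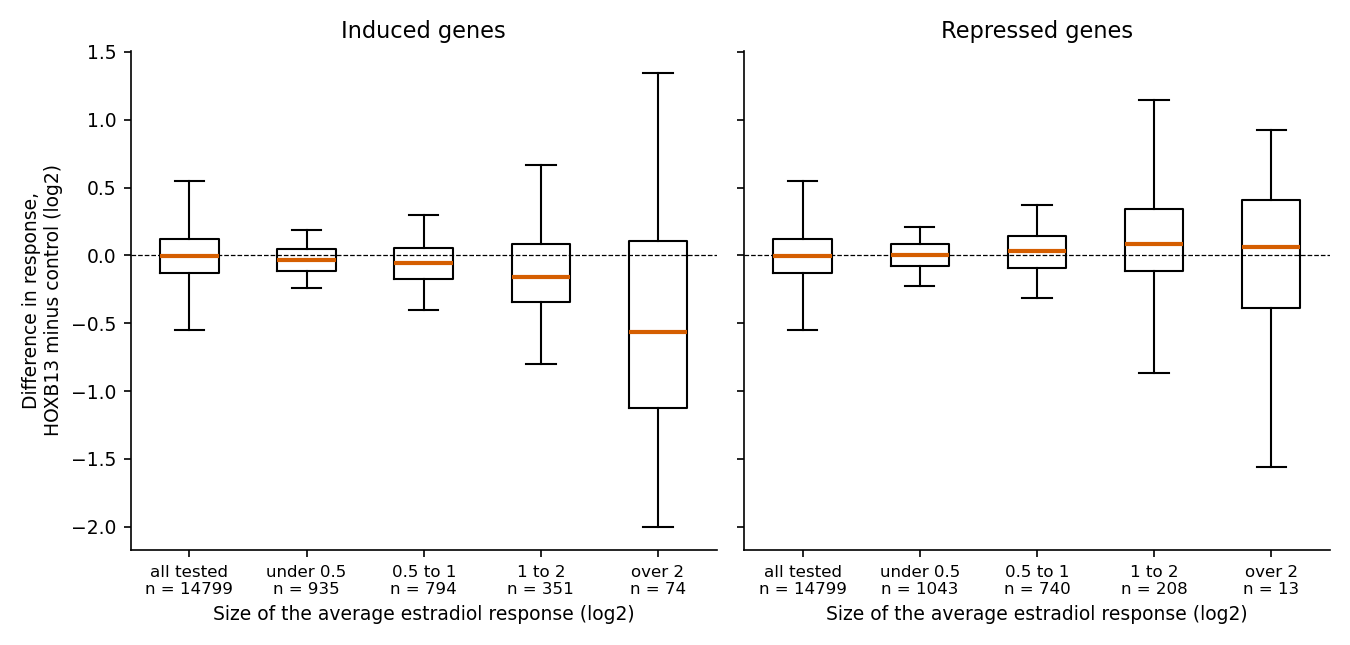
Difference in estradiol response (log2, HOXB13 minus control) for genes grouped by the size of their average response, induced on the left and repressed on the right, beside all tested genes. Boxes span the quartiles with the median in orange and whiskers run from the 5th to the 95th percentile; the median of induced genes goes from -0.03 in the weakest group to -0.56 in the strongest.

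**Figure D4:**
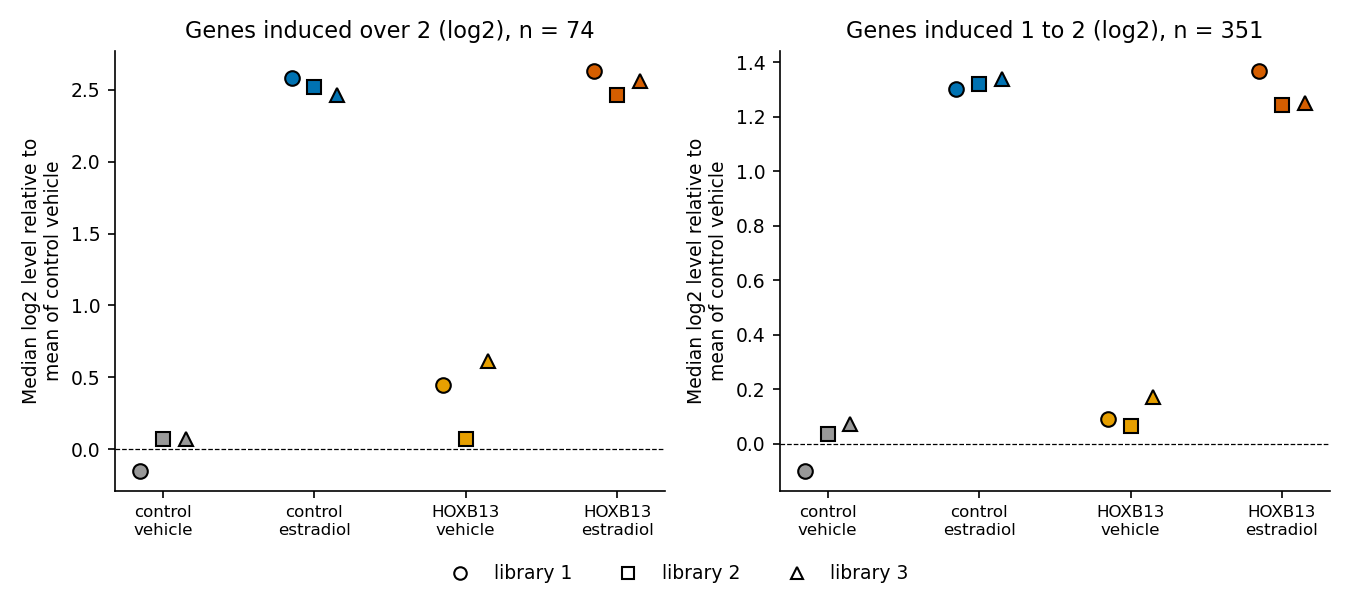
Median log2 level, relative to the mean of the control vehicle libraries, of the 74 genes induced by over 2 (left) and the 351 induced by 1 to 2 (right), 1 point per library. On the left, HOXB13 vehicle libraries 1 and 3 lie at 0.45 and 0.62 while library 2 lies with the controls at 0.07, and the estradiol libraries of both genotypes lie together between 2.46 and 2.63.

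Repressed genes showed smaller median differences. Of the 2004 genes called as repressed on average (13.5%), 1100 had a weaker repression in HOXB13 cells, with a median difference of 0.02. This direction was not stable, because the median turned negative without control vehicle library 1, control estradiol library 2, HOXB13 vehicle library 2 or HOXB13 estradiol library 2. By size, the median was 0.01 in the 1043 genes repressed by under 0.5 and 0.03 in the 740 repressed by 0.5 to 1. In the 208 genes repressed by 1 to 2, 126 were weaker, with a median of 0.08. Only 13 genes were repressed by over 2, with a median of 0.06. Between libraries of the same number, the median of the 221 genes repressed by 1 or more was 0.09, 0.10 and 0.08 (log2 CPM scale) for numbers 1, 2 and 3. Named strongly repressed genes gave differences near 0, such as GRM4, a metabotropic glutamate receptor, at 0.02 ± 0.32 and the potassium channel gene KCNC1 at -0.05 ± 0.23. For the chemokine receptor CXCR4 the difference was -0.39 ± 0.42 and for the transcription factor MAF -0.28 ± 0.55, both with intervals that included 0.

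Of the 12 genes with the smallest unadjusted p among those with a lower value in HOXB13 cells, 7 rose on average with estradiol, 3 fell and 2 were not called. The markers ADRA2A and WISP2 are among the 7 that rose. All 12 had the same direction in each of the library numbers 1, 2 and 3, a feature that a small p favours. NXPH3, a secreted ligand of neurexins, had 1.003, 0.862 and 0.626 CPM in control vehicle, 19.1, 18.3 and 15.1 in control estradiol, 2.28, 1.43 and 1.73 in HOXB13 vehicle and 18.4, 17.7 and 12.9 in HOXB13 estradiol. Its groups stood apart in vehicle and overlapped in estradiol, and the difference was -1.22 ± 0.33 (unadjusted p = 0.00243). SLC47A1, a proton-coupled exporter of organic cations, rose by 3.52 ± 0.21 in control cells and by 2.53 ± 0.20 in HOXB13 cells. SLC29A1, a nucleoside transporter, rose by 1.10 ± 0.12 and 0.53 ± 0.12, and its HOXB13 vehicle libraries at 44.7, 42.5 and 46.2 CPM were all above the control vehicle libraries at 25.6, 34.4 and 35.9 CPM.

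RNF223, a RING finger protein gene, differed between genotypes by -0.45 ± 0.15 in estradiol and by 0.32 ± 0.16 in vehicle (HOXB13 minus control, log2). It had 22.4, 25.2 and 21.4 CPM in control estradiol and 16.6, 17.0 and 16.8 CPM in HOXB13 estradiol, with no overlap, while its vehicle libraries overlapped. It rose by 1.71 ± 0.15 in control cells and by 0.94 ± 0.15 in HOXB13 cells (difference -0.77 ± 0.21, unadjusted p = 0.00291). TMEM201, which encodes a protein of the inner nuclear membrane, rose by 1.30 ± 0.13 and 0.71 ± 0.13, with HOXB13 libraries all above control in vehicle and all below in estradiol.

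CCDC96, CRISP3 and PLEKHB1 fell with estradiol in HOXB13 cells and were not called in control cells, which is no test of a difference. CCDC96, a coiled-coil protein gene, had the smallest unadjusted p of these 12 genes (0.00165), with -1.07 ± 0.22 in HOXB13 cells, 0.13 ± 0.22 in control cells and a difference of -1.20 ± 0.31. CRISP3, a cysteine-rich secretory protein gene, stood at 3.03, 2.71 and 3.36 CPM in HOXB13 estradiol and at 4.83, 5.57 and 4.22 CPM in control estradiol, and its difference was -0.77 ± 0.26. Without the libraries numbered 2 the CRISP3 difference was -0.43 (unadjusted p = 0.226), and by number it was -0.76, -1.40 and -0.08 on the log2 CPM scale. PLEKHB1, a pleckstrin homology domain gene, had a difference of -0.60 ± 0.18. ALOXE3, an epidermal lipoxygenase gene, was called in neither genotype and had a difference of -0.65 ± 0.22. PDCD4-AS1, an antisense RNA whose reads cannot be told from its partner's without strand, was also called in neither and had -0.96 ± 0.32, or -0.57 without the libraries numbered 1.

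Of the 12 genes with the smallest p among those with a higher value in HOXB13 cells, 2 rose on average, 3 fell and 7 were not called. SEC14L2, which encodes a lipid-binding protein of the SEC14 family, was the one strongly induced gene among them. It had 3.11, 3.88 and 2.87 CPM in control vehicle, 10.5, 11.6 and 11.4 in control estradiol, 2.38, 2.96 and 2.67 in HOXB13 vehicle and 16.0, 16.1 and 14.2 in HOXB13 estradiol. The genotypes overlapped in vehicle and stood apart in estradiol, where 668 of all tested genes (4.51%) did so in this direction. It rose by 1.76 ± 0.16 in control cells and by 2.53 ± 0.16 in HOXB13 cells, a difference of 0.77 ± 0.23 (unadjusted p = 0.00449 and adjusted p = 1.0, edgeR's quasi-likelihood test).

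Weaker repression made up most of the other positive values with a called average response. TNFRSF11A, which encodes the receptor RANK, stood at 7.12, 8.05 and 6.58 CPM in control vehicle, 1.95, 1.55 and 3.01 in control estradiol, 4.72, 3.96 and 5.28 in HOXB13 vehicle and 3.08, 2.81 and 3.79 in HOXB13 estradiol. It fell by 1.74 on the log2 scale in control cells (SE 0.24), its response in HOXB13 cells was -0.53 ± 0.24, and the difference was 1.21 ± 0.34. CBLN2, a secreted synaptic organiser, had a difference of 1.29 ± 0.45, with HOXB13 estradiol libraries at 2.92, 4.69 and 5.20 CPM above the control ones at 1.37, 0.774 and 1.41 CPM. PIK3C2G, a class II phosphoinositide 3-kinase gene, had 1.03 ± 0.36. FAT1, an atypical cadherin gene, was not called for the average response and had a difference of 1.26 ± 0.44. It was lower in HOXB13 vehicle, at 1.29, 1.85 and 3.19 CPM against 6.32, 3.59 and 4.91 CPM in control vehicle.

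The other higher values were those of ZNF439 (1.41 ± 0.40), TRMT10B (1.04 ± 0.33), ANK2 (0.97 ± 0.34), PCBP1-AS1 (0.99 ± 0.31), RNA28S5 (0.98 ± 0.33), FAM72A (0.74 ± 0.26) and ABCC6P2 (0.82 ± 0.30). FAM72A, RNA28S5 and the pseudogene ABCC6P2 have near-identical copies in the genome, and PCBP1-AS1 is antisense to its partner, so reads may have been split or shared among genes. RNA28S5 is 28S ribosomal RNA and made up 0.364% to 0.950% of the counts in a library, with the highest share in control vehicle library 1. This share rests on the same counts as the gene's level, so it is no separate measure. Why it varied among libraries was not tested.

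**Figure D5:**
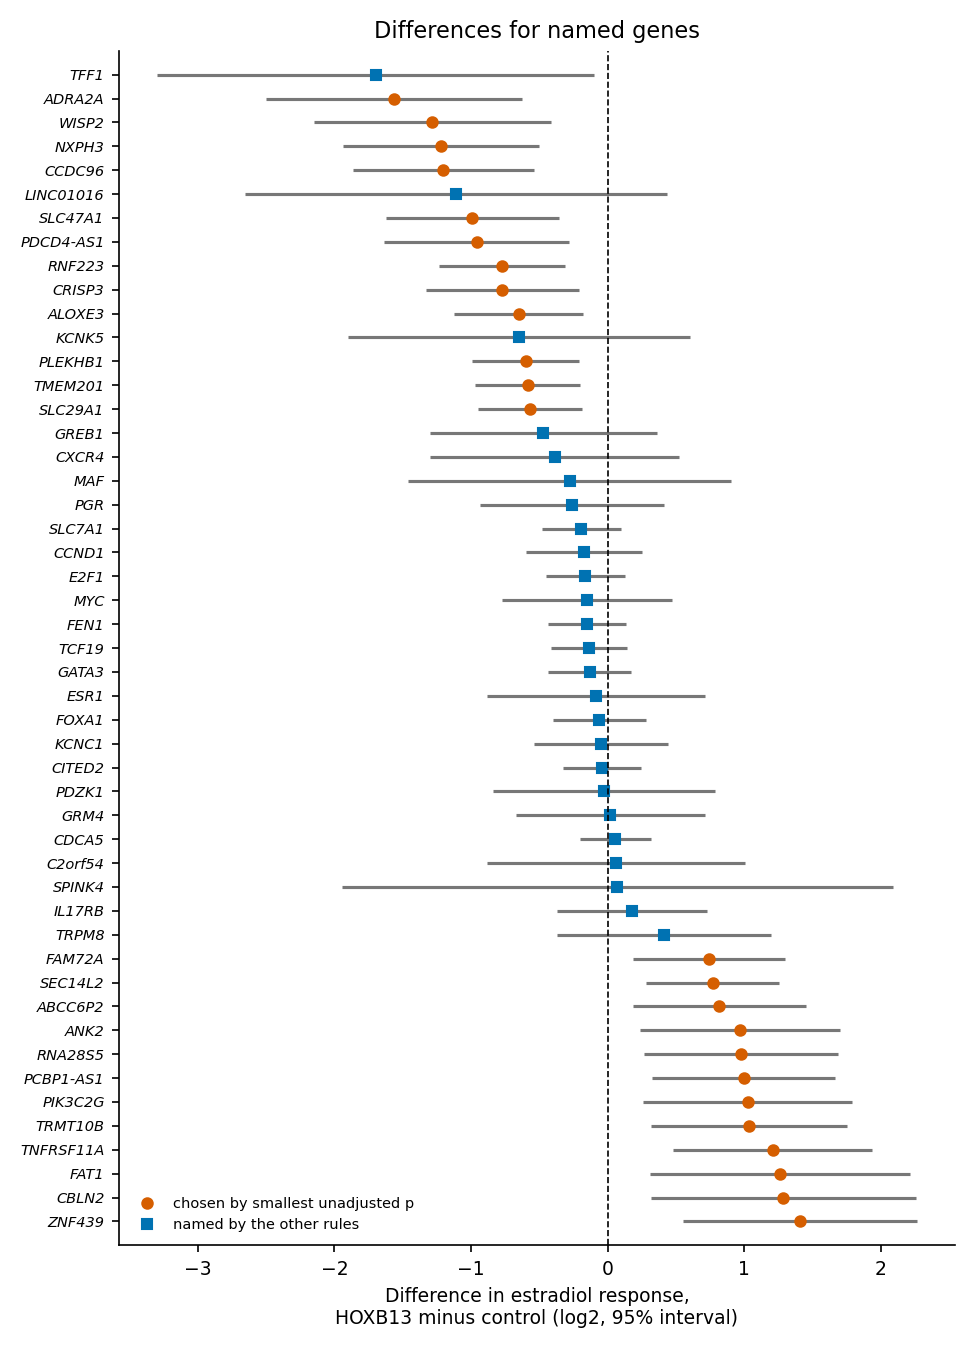
Difference in estradiol response (log2, HOXB13 minus control) with its 95% interval for the genes chosen by the smallest p, the receptor, marker and growth genes, and those chosen by response or interval, ordered by value; genes named only from the lists are not drawn. Orange circles mark the genes chosen by the smallest unadjusted p, whose intervals exclude 0 by that choice. Blue squares mark the other genes drawn. Of these, TFF1 alone has an interval that excludes 0, and it came with the contrast as a marker.

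Among the estrogen receptor, its pioneer factors and its coregulators, 15 of 24 tested genes had a difference below 0, with a median of -0.07, and 0 were called. ESR1 differed by -0.09 ± 0.37, the pioneer factor FOXA1 by -0.06 ± 0.16 and GATA3 by -0.13 ± 0.14. In each of the 4 groups ESR1 was lowest in library 2. Those libraries had 112, 109, 113 and 105 CPM in control vehicle, control estradiol, HOXB13 vehicle and HOXB13 estradiol. PGR, the progesterone receptor, rose by 0.91 ± 0.22 in control cells, and its difference was -0.26 ± 0.31. PGR was likewise lowest in library 2 of each group. GREB1, a receptor cofactor, rose by 1.75 ± 0.27 and 1.28 ± 0.27, a difference of -0.47 ± 0.39 (unadjusted p = 0.244). Its library 2 was the lowest in all 4 groups, at 111, 397, 123 and 398 CPM in control vehicle, control estradiol, HOXB13 vehicle and HOXB13 estradiol. Without the libraries numbered 2 its difference was -0.56 (unadjusted p = 0.00117), which still failed the adjustment. Leaving out single libraries moved it between -0.74, without HOXB13 vehicle library 2, and -0.24, without HOXB13 vehicle library 3, with an unadjusted p of up to 0.548. ZNF703, a corepressor, had the smallest p of the list, at -0.37 ± 0.15 (unadjusted p = 0.0265).

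The secreted and surface proteins induced by estrogen held the largest share of lower values among the larger lists. Of 33 tested, 28 had a difference below 0 and 7 had an unadjusted p under 0.05, against 130 lower genes (0.878%) over all tested genes, and the median was -0.21. The list was assembled with results of these data known and holds the 3 markers, so its direction is not independent evidence. Members with a difference near 0 were PDZK1 and SPINK4. PDZK1, a scaffold protein, had responses of 3.37 ± 0.26 and 3.34 ± 0.27, a difference of -0.03 ± 0.38, and SPINK4, a secreted protease inhibitor named for its average response, had 0.07 ± 0.94. KCNK5, a potassium channel, had -0.65 ± 0.58 and, outside the list, the noncoding RNA LINC01016 had -1.11 ± 0.72, both with intervals that included 0.

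Of the 30 estrogen-induced regulators and enzymes, 20 were below 0, with a median of -0.15. GALNT5, an enzyme that starts mucin-type glycosylation, had -1.82 ± 0.84 (unadjusted p = 0.0417), with 1.89, 0.581 and 4.60 CPM in HOXB13 vehicle and 0.201, 0.718 and 0.313 CPM in control vehicle. Its HOXB13 vehicle values differed widely, and leaving out single libraries moved the difference between -2.50, without control vehicle library 2, and -0.90, without HOXB13 vehicle library 3. MYC, a growth regulator, rose by 2.00 ± 0.21 and 1.85 ± 0.20 (difference -0.15 ± 0.29), and the cyclin gene CCND1 rose by 0.81 ± 0.14 and 0.63 ± 0.14 (difference -0.17 ± 0.20). In the list of 30 estrogen-repressed genes, 11 were below 0 and the median was 0.08. AQP3, a water channel, had 0.71 ± 0.37.

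The genes of DNA replication responded in both genotypes: 44 of 44 rose in control cells and 44 of 44 in HOXB13 cells, against 8.65% and 7.22% of all tested genes. Their median response was 1.22 and 1.05, 35 of the 44 had a difference below 0, and the median difference was -0.13. Among all genes induced by 1 to 2, 69.2% were weaker, with a median of -0.16. CHAF1B, a subunit of chromatin assembly factor 1, had the smallest p of the list at -0.56 ± 0.21 (unadjusted p = 0.0184). Among 40 genes of mitosis, 26 were below 0 with a median of -0.04, and among 34 of ribosome biogenesis 24 were below 0 with a median of -0.06. No gene of these 3 lists was called.

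The 6 genes with the shortest intervals were sought only among genes called for the average response. They also needed an average change of at least 1 (log2) and an average log2 CPM of at least 1. That these genes responded and were well expressed was thus set by the choice. Their unadjusted 95% intervals bound the difference for these genes only. E2F1, a transcription factor of the G1/S transition, had 37.3, 37.6 and 39.8 CPM in control vehicle, 107, 113 and 105 in control estradiol, 37.5, 40.2 and 40.0 in HOXB13 vehicle and 95.4, 110 and 93.1 in HOXB13 estradiol. It rose by 1.51 ± 0.10 and 1.34 ± 0.10, with a 95% interval of the difference from -0.45 to 0.13. CDCA5, the cohesin regulator sororin, had an interval of -0.20 to 0.32, and FEN1, the flap endonuclease, one of -0.44 to 0.13. CITED2, a regulator that binds CBP and p300, fell in both genotypes, with an interval of the difference from -0.33 to 0.24. TCF19 lay between -0.41 and 0.15 and the amino acid transporter gene SLC7A1 between -0.48 and 0.09.

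Genes related to HOXB13 gave no call. Of 17 tested HOX cluster genes, HOXB13 included, 10 were below 0. HOXB2 had -0.37 ± 0.14 (unadjusted p = 0.0172), with vehicle libraries all above and estradiol libraries all below the control ones, and HOXB5 had -0.79 ± 0.41. HOX cofactors of the TALE class were split, with 5 of 10 below 0 and a median of 0.00. IL17RB, the interleukin receptor whose ratio to HOXB13 has been used as a marker, rose by 0.77 ± 0.18 in control cells and by 0.95 ± 0.18 in HOXB13 cells, a difference of 0.18 ± 0.26.

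The remaining lists held no called gene, and over all tested genes 51.1% were below 0 with a median of -0.01. Of 23 androgen receptor targets and prostate luminal genes, 10 were below 0 with a median of 0.01, and FOLH1, which encodes the prostate-specific membrane antigen, had -1.04 ± 0.54. Of 11 NF-kB and inflammatory genes, 8 were below 0 with a median of -0.13, and BCL3, an atypical IkB protein, had -0.45 ± 0.17 (unadjusted p = 0.0187). Of 25 luminal identity genes, 17 were below 0 with a median of -0.09, and of 12 basal and myoepithelial genes, 6 were below 0 with a median of -0.03. Markers of other cell types passed the filter for 5 genes, with 2 below 0. In bulk RNA a change in the share of cells that respond and a change in response per cell cannot be told apart.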

How the data were processed

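Total RNA of T47D cells was sequenced in 12 libraries. The authors deposited a table of whole-number read counts per gene symbol. The submitters' processing notes list FastQC, STAR, Picard and HTSeq with builds GRCh37 and hg19; the sources used here give no versions or strand settings. Counts were analysed with edgeR 4.0.16 in R 4.3.3: filterByExpr by group, TMM scaling, a group-means model over all 12 libraries, robust quasi-likelihood F tests and Benjamini-Hochberg adjustment over 14799 genes at 0.05. Standard errors and 95% intervals are Wald values from that fit, and 3 genes had none; this form replaced one derived from the F statistic, which failed for differences near 0. CPM are scaled by TMM. Library totals of 17679824 to 21385996 counts set the precision at low levels.

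Named genes were a fixed set of receptor, marker and growth genes, the 12 per direction with the smallest unadjusted p among genes whose average log2 CPM reached 1, the 6 per direction with the largest average response, the 6 responsive genes with the shortest interval, up to 3 per list, and the relatives of the markers. Members and all 17 lists were chosen with earlier results of these data known. The planned promoter windows of TFF1, WISP2 and ADRA2A were replaced by the 3 shown. Alternatives were RLE and upper-quartile scaling, no filter, DESeq2 1.42.0, limma-voom 3.58.1, a replicate block, a term for the libraries numbered 2, and libraries left out. The interaction step was tested on simulated data. Those counts were drawn with no effect of library number, so the test does not cover the way the libraries numbered 2 stood apart.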

Additional observations from a re-analysis of the deposited data

How the results depend on the processing

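The interaction called 0 genes under RLE and upper-quartile scaling, DESeq2, limma-voom, the replicate block, the number-2 term and each of the 12 fits without 1 library. With no filter it called 3 higher and 1 lower genes, and without replicate 2 it called 1 lower gene, so leave-outs ranged from 0 to 1. Genes at an unadjusted p under 0.05 numbered 517 with no filter, 585 with the replicate block, 520 with the number-2 term and 129 to 409 over the leave-outs, against 219. Same-numbered libraries were not treated as paired: their deviations correlated at 0.0926 to 0.457, over 0.1 in 16 of 18 pairs, and 12 of 12 libraries correlated best with their own number, a hint from the data and not from the design. With the replicate block, calls rose to 2594 higher and 2438 lower for the response in control cells, 2297 and 2222 in HOXB13 cells, 3362 and 3369 for the average response, 28 and 32 for genotype in vehicle, and 21 and 37 for genotype in estradiol. The number-2 term gave 2483 and 2332, 2220 and 2110, 3305 and 3296, 22 and 22, and 14 and 25 in the same order. Over the leave-outs these counts ranged from 362 to 1915 and 187 to 1651, 212 to 1741 and 98 to 1540, 971 to 2861 and 762 to 2696, 0 to 28 and 0 to 9, and 1 to 8 and 0 to 13. Genotype in vehicle, 3 higher and 0 lower genes, became 37 and 25 with no filter, 13 and 7 with DESeq2, 5 and 1 with limma-voom, and 5 higher with upper-quartile scaling. Genotype in estradiol, 2 higher and 0 lower, became 16 and 14 with no filter, 11 and 9 with DESeq2, and 2 lower with limma-voom. The cause of these shifts was not tested. For all induced genes the median difference of -0.05 became -0.0336 and the weaker share of 63.8% became 58.8% with upper-quartile scaling, and the median was -0.17 in genes with an average change of at least 1; leave-outs gave -0.114 to -0.0106 and 52.0% to 71.0%. Leave-outs gave -0.196 to -0.0703 and 55.7% to 73.5% for genes induced by 1 to 2. For genes induced by over 2, no filter gave -0.33 and 61.5% weaker, against 71.6%; leave-outs gave -0.75 to -0.29 and 62.7% to 78.6%, and, with the set kept fixed, which was added after seeing the data, -0.731 to -0.319 and 64.9% to 77.0% (-0.366 without control vehicle library 1 and -0.348 without HOXB13 vehicle library 3). For repressed genes the median of 0.02 became 0.0411 with upper-quartile scaling, 0.0305 with no filter, 0.0129 with limma-voom and 0.0787 at a change of at least 1; the weaker share of 54.9% became 60.8%, 57.9% and 60.6% with upper-quartile scaling, no filter and a change of at least 1. Its leave-outs ran from -0.0251 to 0.0874 and from 45.1% to 67.2% and reversed without control vehicle library 1 (-0.0111, 46.96%), control estradiol library 2 (-0.00124, 49.4%), HOXB13 vehicle library 2 (-0.00700, 48.4%) and HOXB13 estradiol library 2 (-0.0251, 45.1%). Of 2093 values of the 91 named genes under the alternatives, 51 had another sign, none of them with an unadjusted p under 0.05 in either fit, and 3 passed the threshold: ADRA2A with no filter and without replicate 2, and RNA28S5 with no filter. Depth limits the differences of genes at few CPM, TFF1 among them.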
